A study of Mus musculus with 9 samples.

Results

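Etnppl, Cbx7, Galnt6, Tprkb and Rab37 are 5 genes, of 53924 named rows and 16634 tested genes, that were picked because they stood above control in mouse cerebellum after 3-AP alone and after 3-AP given to mice pretreated with PLX3397. They were chosen by their measured levels in both treated groups against control, so those values are a description and carry no test here. Each gene has 1 row in the deposited files, and all 5 passed the filter on low counts. Bulk RNA sequencing of total RNA gave 9 libraries in 3 groups of 3. The 3AP mice received 3-AP (3-acetylpyridine, an analogue of nicotinamide toxic to the inferior olive, whose axons reach the cerebellum), the PLX3AP mice received 3-AP following microglia depletion with PLX3397 (an inhibitor of the CSF1 receptor), and the control mice received saline. All mice of both treated groups thus carried 3-AP, and a group given PLX3397 without 3-AP was not analysed here, so that effects of the inhibitor and of its combination with 3-AP cannot be told apart. The sources used here do not state strain, age, sex, doses or times.

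The 5 proteins work in unrelated processes. Etnppl (ethanolamine-phosphate phospho-lyase) breaks down phosphoethanolamine, an intermediate of membrane phospholipid synthesis, and in brain is found mainly in astrocytes. Cbx7 is a chromodomain subunit of Polycomb repressive complex 1, which binds histone H3 trimethylated at lysine 27 and keeps genes silent. Galnt6 is a GalNAc-transferase that adds the first sugar of mucin-type O-glycans in the Golgi, Tprkb is a subunit of the KEOPS complex, which takes part in making the modified base t6A of transfer RNA, and Rab37 is a small GTPase of regulated secretion.

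Promoter sequences of RefSeq (build GRCm38.p6) were found for 4 of the 5 genes, without Rab37, as windows of 300 bases with 250 before and 50 after the start site. Where the table holds several start sites (2 for Etnppl, 2 for Galnt6 and 3 for Tprkb), 1 window is shown, that with the most coding transcripts of GENCODE M21 starting within 50 bases; the others were not scored. The windows are shown because the genes were chosen for moving in the same direction, so that a reader can compare their start regions. Each is written 5′ to 3′ on the gene's own strand, and capitals mark matches on either strand to one of 6 short motifs. The windows lie at chr3:130617325-130617624 on the plus strand for Etnppl, chr15:79932597-79932896 on the minus strand for Cbx7, chr15:100729327-100729626 on the minus strand for Galnt6, and chr6:85915469-85915768 on the plus strand for Tprkb.
Etnppl: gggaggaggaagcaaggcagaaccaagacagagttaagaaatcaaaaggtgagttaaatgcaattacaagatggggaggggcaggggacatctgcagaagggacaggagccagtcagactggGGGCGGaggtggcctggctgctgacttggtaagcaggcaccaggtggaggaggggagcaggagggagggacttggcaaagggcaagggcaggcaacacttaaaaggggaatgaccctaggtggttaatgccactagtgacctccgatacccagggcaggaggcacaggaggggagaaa
Cbx7: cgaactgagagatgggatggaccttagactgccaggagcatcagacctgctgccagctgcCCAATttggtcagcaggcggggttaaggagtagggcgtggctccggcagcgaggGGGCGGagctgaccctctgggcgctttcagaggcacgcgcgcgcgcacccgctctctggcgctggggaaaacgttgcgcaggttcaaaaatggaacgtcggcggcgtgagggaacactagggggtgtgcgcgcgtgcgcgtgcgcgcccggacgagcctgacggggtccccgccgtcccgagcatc
Galnt6: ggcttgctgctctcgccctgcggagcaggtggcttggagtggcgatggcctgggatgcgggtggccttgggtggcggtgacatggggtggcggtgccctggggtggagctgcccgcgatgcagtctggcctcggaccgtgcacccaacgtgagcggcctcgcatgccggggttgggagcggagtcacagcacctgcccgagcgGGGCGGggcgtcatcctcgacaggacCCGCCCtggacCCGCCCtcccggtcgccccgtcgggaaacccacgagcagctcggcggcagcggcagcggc
Tprkb: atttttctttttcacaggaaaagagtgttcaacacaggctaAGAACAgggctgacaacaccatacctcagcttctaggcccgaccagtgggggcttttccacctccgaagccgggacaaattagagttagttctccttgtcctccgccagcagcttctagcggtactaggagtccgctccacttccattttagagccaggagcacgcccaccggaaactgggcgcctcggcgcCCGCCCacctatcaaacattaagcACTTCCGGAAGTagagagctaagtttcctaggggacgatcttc

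The motif found in all 4 windows was the GC box (GGGCGG), once each in Etnppl, Cbx7 and Tprkb and 3 times in Galnt6; 35.7% of the 32851 windows in the table hold it. Cbx7 also held a CCAAT box (CCAAT, in 37.4% of windows). Tprkb held a pair of overlapping ETS motifs (CCGGAAGT, in 3.89% of windows), which form 1 palindromic run just after the start site. It also held 1 glucocorticoid receptor half-site (AGAACA, in 19.0%). The letters of the TATA box (TATAAA, in 13.6%) and the E-box (CACGTG, in 7.15%) were not in these 4 windows.

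The windows differed in CpG content. The observed over expected CpG ratio was 0.0989 in Etnppl, against a median of 0.384 over all windows, and 13.1% of windows were lower. It was 0.992 in Cbx7, 0.772 in Galnt6 and 0.667 in Tprkb, and 93.6%, 76.8% and 68.5% of windows were lower than these. The Etnppl window shown was thus poor in CpG, and the other 3 windows shown were above the median.

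Libraries held 18452256 to 22358447 estimated counts, and the labels do not say that each came from its own animal, so p-values measure the spread between these libraries, which may be technical. Levels are given as CPM (counts scaled to library size by TMM) to compare groups, and as TPM, which is also per transcript length, to compare genes. Genes were called at an adjusted p under 0.05 in edgeR's quasi-likelihood test. Microglia and leukocyte marker genes differed between the groups: the 16 microglia markers summed to 463 to 546 TPM in 3AP, 127 to 211 TPM in PLX3AP and 221 to 240 TPM in control. In bulk tissue, fewer cells of a type and less RNA per cell cannot be told apart.

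Etnppl had the largest differences of the 5 genes. It lay at 221, 207 and 172 CPM in the 3AP libraries, at 117, 129 and 121 CPM in the PLX3AP libraries and at 69.4, 66.2 and 82.8 CPM in the control libraries. Every 3AP library was above every PLX3AP library, and every PLX3AP library above every control library. Its log2 fold change against control was 1.46 (SE 0.11, a 2.74-fold difference) in 3AP and 0.75 (SE 0.11, 1.68-fold) in PLX3AP. On the TPM scale Etnppl averaged 112 ± 17.7 in 3AP, 72.3 ± 4.24 in PLX3AP and 41.0 ± 3.65 in control (SD, n = 3 each), in the same order.

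Cbx7 stood above control by similar amounts in both treated groups. It lay at 119.6, 124 and 115 CPM in 3AP, at 112, 112 and 114 CPM in PLX3AP and at 83.7, 83.6 and 84.1 CPM in control. The treated libraries did not overlap the control libraries, and all 3 PLX3AP libraries lay just below all 3 3AP libraries. The log2 fold change against control was 0.51 (SE 0.063, 1.43-fold) in 3AP and 0.43 (SE 0.063, 1.35-fold) in PLX3AP. In TPM, Cbx7 averaged 71.3 ± 8.24 in 3AP, 69.5 ± 2.81 in PLX3AP and 48.3 ± 4.30 in control (SD, n = 3 each).

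Galnt6 was the lowest of the 5 in level. It lay at 16.8, 16.9 and 16.1 CPM in 3AP, at 17.6, 20.6 and 19.9 CPM in PLX3AP and at 12.5, 11.7 and 12.9 CPM in control. Both treated groups stood above control without overlap, and the PLX3AP libraries were the highest. The log2 fold change against control was 0.42 (SE 0.10, 1.34-fold) in 3AP and 0.65 (SE 0.10, 1.57-fold) in PLX3AP. Its TPM averaged 7.59 ± 0.256 in 3AP, 8.81 ± 1.04 in PLX3AP and 5.42 ± 0.193 in control (SD, n = 3 each).

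Tprkb showed a small difference on the CPM scale that was less clear in TPM. It lay at 115, 116 and 109 CPM in 3AP, at 119, 129 and 124 CPM in PLX3AP and at 94.8, 94.3 and 93.7 CPM in control. In CPM the groups did not overlap. Its log2 fold change against control was 0.27 (SE 0.066, 1.20-fold) in 3AP and 0.39 (SE 0.066, 1.31-fold) in PLX3AP. In TPM it lay at 133, 169.7 and 177 in 3AP, at 164, 177 and 192 in PLX3AP and at 158, 139 and 122 in control, so that the lowest 3AP library lay among the control libraries while PLX3AP stayed above them.

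Rab37 had the smallest difference in 3AP, together with Tprkb. It lay at 27.1, 29.0 and 29.4 CPM in 3AP, at 32.4, 35.6 and 33.1 CPM in PLX3AP and at 23.8, 22.5 and 24.9 CPM in control. All 3AP libraries were above all control libraries, and all PLX3AP libraries above all 3AP libraries. The log2 fold change against control was 0.27 (SE 0.086, 1.20-fold) in 3AP and 0.51 (SE 0.085, 1.42-fold) in PLX3AP. Its TPM averaged 22.3 ± 0.807 in 3AP, 26.4 ± 2.07 in PLX3AP and 17.6 ± 0.921 in control (SD, n = 3 each).

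**Figure D1:**
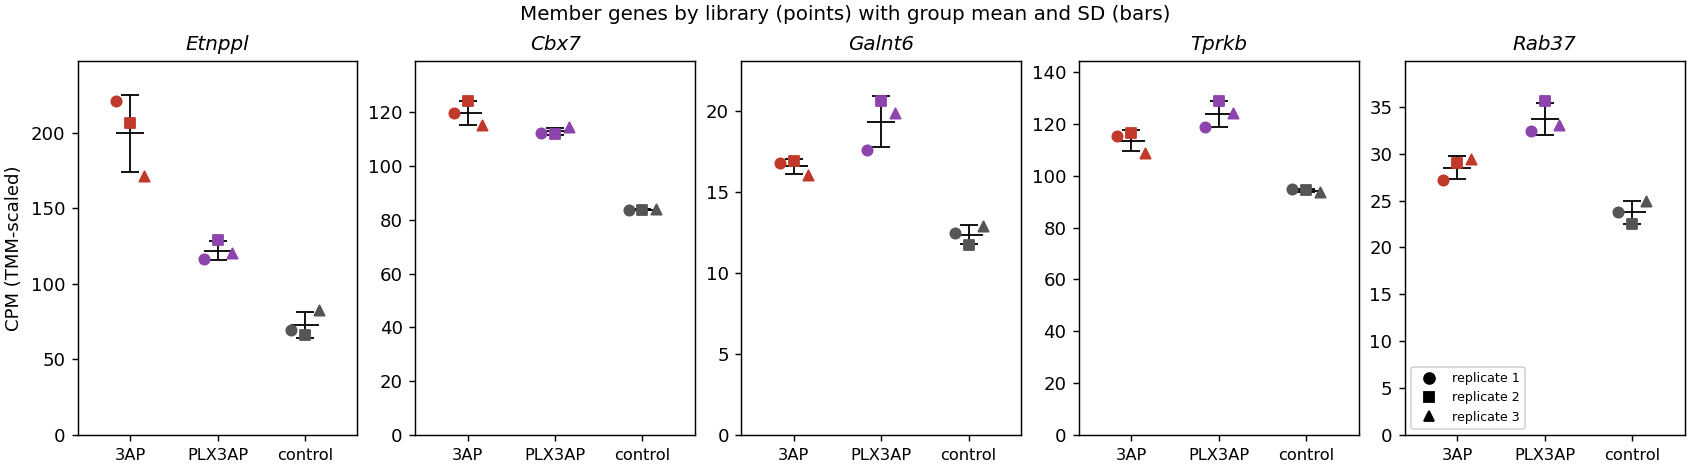
CPM of each gene (y axis, counts scaled to library size, starting at 0) in the 3AP, PLX3AP and control libraries; points are libraries, and bars the group mean and SD (n = 3). All 6 treated libraries lie above the 3 control libraries in each panel, and Etnppl is the panel in which 3AP lies well above PLX3AP.

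**Figure D2:**
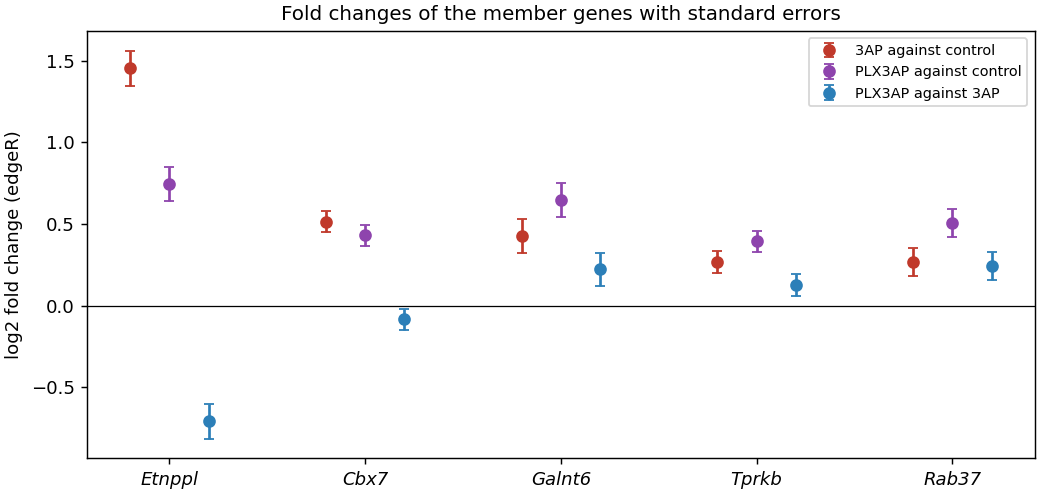
Log2 fold change from edgeR (y axis) of each gene in 3AP against control, PLX3AP against control and PLX3AP against 3AP; bars are standard errors. Etnppl is at 1.46 and 0.75 against control and at -0.71 between the treated groups, whereas the other 4 genes lie between 0.27 and 0.65 against control.

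Of the 5 genes, 4 were called higher in 3AP against control, where 3.75% of tested genes were, and all 5 in PLX3AP against control, where 0.0361% (6 genes) were; 4 were called higher in both, where 0.0301% (5 genes) were. Rab37 did not pass the call in 3AP. The choice used these contrasts, so nothing is read from the counts. Irf7, an interferon-induced transcription factor, was the sixth gene called higher in PLX3AP and was not among the 5 (log2 fold change 3.36 in 3AP and 0.97 in PLX3AP). Just inside the threshold in PLX3AP lay Tprkb (0.39, SE 0.066) and Rab37 (0.51, SE 0.085), and just outside lay Itpr3 (0.65, SE 0.12), Ifit3 (0.59, SE 0.11) and Oplah (0.55, SE 0.11). All 3 3AP libraries stood above all 3 control libraries for the 5 genes in CPM, as for 13.6% of tested genes, and for 4 of them in TPM, as for 16.2%. All 3 PLX3AP libraries did so for the 5 genes on both scales, as for 7.86% of tested genes in CPM and 8.64% in TPM. All 6 treated libraries stood above all 3 control libraries for the 5 genes in CPM, as for 3.64% of tested genes, and for 4 of the 5 in TPM, as for 4.33%.

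The calls in PLX3AP changed when single libraries were left out, while the log2 fold changes moved less. Without 1 library these were 0.68 to 0.85 for Etnppl, 0.42 to 0.43 for Cbx7 and 0.60 to 0.70 for Galnt6. They were 0.36 to 0.42 for Tprkb and 0.46 to 0.54 for Rab37. Such fits also have fewer degrees of freedom, whose part in the calls was not tested. The number of the 5 genes called higher there was 0 without control 1, control 2, PLX3AP 2 or PLX3AP 3, 1 without control 3 or 3AP 1, 2 without 3AP 2, 3 without 3AP 3 and 5 without PLX3AP 1. In 3AP it was 2 without control 1, control 2, control 3, 3AP 1 or 3AP 2 and 3 without 3AP 3. Every gene kept a positive log2 fold change in both contrasts under all 17 alternatives run. These counts describe how the calls change when a library is left out and are no test of the genes.

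Between the treated groups, Etnppl was the 1 gene of the 5 that passed the test, and it was lower in PLX3AP. This contrast was not named in the choice, but it is the difference of the 2 contrasts that were. Its test thus draws on the same libraries and values and is not independent of the choice. Etnppl had a log2 fold change of -0.71 in PLX3AP against 3AP (SE 0.10, 95% interval -0.94 to -0.48, adjusted p = 0.0014), which is 1.64-fold lower, where 3.16% of tested genes were called lower. No gene of the 5 was called higher in PLX3AP, where 0.577% of tested genes were. It was called in all 17 alternatives, with adjusted p from 5.4e-08 to 0.015 and a log2 fold change from -0.82 to -0.62.

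Cbx7, Galnt6, Tprkb and Rab37 did not pass. Their log2 fold changes in PLX3AP against 3AP were -0.08 for Cbx7 (95% interval -0.22 to 0.05, adjusted p = 0.69), 0.22 for Galnt6 (0.0019 to 0.44, adjusted p = 0.41), 0.13 for Tprkb (-0.016 to 0.27, adjusted p = 0.49) and 0.24 for Rab37 (0.057 to 0.42, adjusted p = 0.21). The intervals are not adjusted for the number of genes, and the genes were chosen on high values in these same libraries, so nothing is read from where the intervals lie. In CPM all 3 PLX3AP libraries stood above all 3 3AP libraries for Galnt6, Tprkb and Rab37, as for 7.66% of tested genes, and below them for Etnppl and Cbx7, as for 9.22%. In TPM only Rab37 stood above, as for 4.95%, and only Etnppl below, as for 8.93%. None of these 4 genes was called in this contrast in any of the 17 alternatives.

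Etnppl is known in brain as an astrocyte gene, so the astrocyte markers are given beside it. The 15 astrocyte and Bergmann glia markers, all detected, summed to 4336 to 5581 TPM in 3AP, 4435 to 5368 TPM in PLX3AP and 4599 to 4817 TPM in control. In 3AP against control 1 of 15 markers was called higher (Gfap, the intermediate filament of reactive astrocytes), where 3.75% of tested genes were. Called lower were 4 (Aqp4, Hopx, Slc7a10 and Fabp7), where 1.18% of tested genes were. These 5 markers are named after their values were seen. In PLX3AP against control, where 0.12% of tested genes were called, edgeR called none, with 2 at an unadjusted p under 0.05. DESeq2 and limma-voom called 1 each there. In PLX3AP against 3AP 1 marker was called higher (Hopx), where 0.577% of tested genes were, and 1 lower (Gfap), where 3.16% were. In that contrast 6 markers had an unadjusted p under 0.05. The median log2 fold change of the 15 markers was -0.06 in 3AP against control, 0.08 in PLX3AP against control and 0.12 in PLX3AP against 3AP. The first 3 of the list, Aldh1l1, Aldoc and Slc1a2, were not called, with log2 fold changes against control of 0.30, 0.14 and 0.15 in 3AP and 0.18, 0.13 and -0.08 in PLX3AP. The markers' part in the Etnppl result was not tested.

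Several other marker lists also held genes called lower in PLX3AP against 3AP, and some held genes called higher. Of all tested genes, 3.16% were called lower in this contrast and 0.577% higher. Of 16 microglia markers, 10 were called lower in PLX3AP against 3AP and 8 higher in 3AP against control, where 3.75% of tested genes were. In PLX3AP against control edgeR called 0 of them, with 11 at an unadjusted p under 0.05 and a median log2 fold change of -0.66. DESeq2 called 4 there and limma-voom 0. Of the 8 tested blood leukocyte markers, 6 were lower in PLX3AP against 3AP; 1 of the 14 on the list was at 0 in every library, and the list summed to 48.2 to 124 TPM in 3AP, 6.36 to 11.6 TPM in PLX3AP and 3.16 to 18.6 TPM in control. The 12 endothelial markers summed to 615 to 709 TPM in 3AP, 389 to 432 TPM in PLX3AP and 397 to 401 TPM in control. Of these markers, 4 were called lower and 1 higher in PLX3AP against 3AP. Of 8 meningeal fibroblast markers, 4 were called lower in PLX3AP against 3AP, and they summed to 152 to 204 TPM in 3AP, 94.0 to 152 TPM in PLX3AP and 95.6 to 214 TPM in control. Of 11 oligodendrocyte precursor markers, 2 were called lower in PLX3AP against control, where 0.12% of tested genes were called in either direction. In 3AP against control 3 of these 11 were called lower, where 1.18% of tested genes were. In PLX3AP against 3AP 1 of them was called higher and 0 lower. In that contrast 1 of 15 mature oligodendrocyte markers was called higher and 1 lower. Of 10 granule cell markers 1 was called higher and 0 lower there, and of 12 Purkinje cell markers 0 were called. The part of these cell types in any of the 5 results was not tested. Choroid plexus markers differed widely within groups (1069 to 3391 TPM in 3AP, 49.3 to 3343 TPM in PLX3AP and 198 to 6250 TPM in control).

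Control libraries lay very close together for Cbx7 and Tprkb. The coefficient of variation of control CPM was 0.322% for Cbx7 and 0.543% for Tprkb, where the median of all tested genes was 9.49%, and 0.144% and 0.475% of tested genes had smaller values. Counting error alone gives 2.44% for Cbx7 and 2.30% for Tprkb, so these libraries lay closer than counting error would place them. For Etnppl, Galnt6 and Rab37 it was 12.1%, 4.77% and 5.09%. The edgeR fit shares its estimate of spread between genes, so its standard errors do not rest on these 3 libraries alone.

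The relation of count to TPM also varied between libraries for Tprkb. Count per TPM, relative to the gene's mean and the library's median, is a measure of the transcript length assigned to the gene. For Tprkb it was 1.24 in 3AP 1 and 0.860 in control 1, so the highest was 1.44 times the lowest, more than in 91.7% of 11322 genes with at least 100 counts in every library (median 1.10). The ratio of highest to lowest was 1.18 for Cbx7, 1.14 for Etnppl, 1.07 for Rab37 and 1.00 for Galnt6. In the GENCODE M21 annotation, Tprkb has 14 transcripts (9 coding, of 475 to 2222 bases) and Galnt6 has 3 (all coding, of 2746 to 3798 bases). Whether the mix of transcripts differed was not tested.

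**Figure D3:**
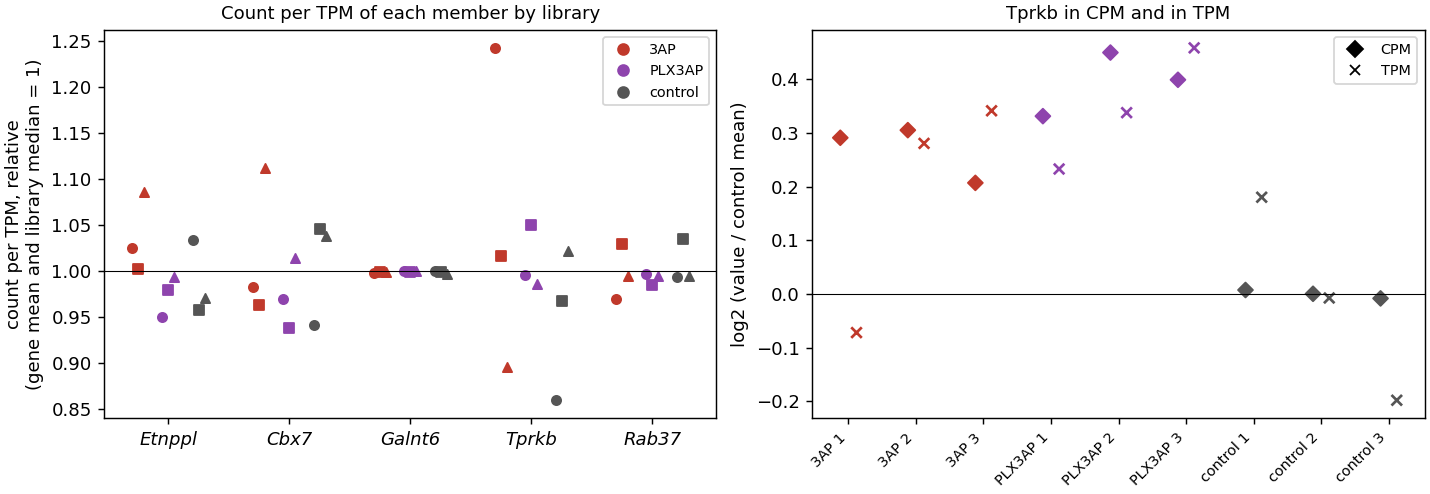
Left, count per TPM of each gene by library (y axis, relative to gene mean and library median of 1; circle, square and triangle are replicates 1, 2 and 3); right, Tprkb in each library as the log2 ratio to its control mean, in CPM and in TPM. Tprkb runs from 0.860 to 1.24 on the left, and on the right 3AP 1 lies above control in CPM but not in TPM.

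The members were set beside 11 lists, of their partners and relatives and, in the last list, of genes that respond to glucocorticoids. The lists held 140 genes, of which 132 were tested. In 3AP against control 5 were called higher and 1 lower, in PLX3AP against control none by edgeR (12 at an unadjusted p under 0.05, none by limma-voom and 1 by DESeq2, Zbtb16), and in PLX3AP against 3AP 3 lower. Of all tested genes, 3.75% were called higher and 1.18% lower in the first contrast (4.93% in all), 0.12% were called in the second and 3.73% in the third. The median log2 fold change of the 132 genes was -0.00 in 3AP against control and -0.02 in PLX3AP against control, beside 0.00 in both for all tested genes. Zbtb16 is named after its values were seen. The glucocorticoid list held Zbtb16, 2 of the genes called higher in 3AP against control and the 1 called lower there. It also held 1 of the 3 called lower in PLX3AP against 3AP.

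Phosphoethanolamine metabolism, the pathway of Etnppl, had no called gene among 20 tested, in any contrast by edgeR, DESeq2 or limma-voom (4, 0 and 4 at an unadjusted p under 0.05 in 3AP against control, PLX3AP against control and PLX3AP against 3AP). Phykpl, a related phospho-lyase, had a log2 fold change of -0.03 in 3AP and 0.03 in PLX3AP against control. The Polycomb lists also held no called gene by any of these 3 tools: of Polycomb repressive complex 1, 19 of 19 listed genes were tested (2, 0 and 2 at an unadjusted p under 0.05, in the same order of contrasts), and of Polycomb repressive complex 2, 11 of 11 (2, 0 and 1). Cbx2, a sister of Cbx7, had -0.28 in 3AP and -0.36 in PLX3AP against control, and Ezh1, a methyltransferase of lysine 27, 0.07 and 0.13. Cbx1, of the heterochromatin protein 1 family, had -0.20 and -0.28, also uncalled. Cdkn2b, a Polycomb target in cultured cells, had 16, 36 and 32 counts summed over 3AP, PLX3AP and control, and Cdkn2a was too low to test.

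Among 15 tested GalNAc-transferases, the family of Galnt6, Galnt15 was called higher in 3AP against control. Galnt15 averaged 56.8 ± 5.06 CPM in 3AP, 54.8 ± 4.15 CPM in PLX3AP and 43.2 ± 2.76 CPM in control (SD, n = 3 each), a log2 fold change of 0.39 in 3AP (SE 0.091, adjusted p = 0.024) and 0.34 in PLX3AP (SE 0.091, adjusted p = 0.27). The call in 3AP was lost without control 2 (adjusted p = 0.10), control 3 (0.082), 3AP 1 (0.077) or 3AP 2 (0.12). Galnt1 had 0.03 and -0.01 in 3AP and PLX3AP, and Galnt3 was too low to test. Of 11 tested genes of O-glycan extension, B3gnt3, an N-acetylglucosaminyltransferase, was called higher in 3AP (log2 fold change 1.67, adjusted p = 0.010, but 0.063 without 3AP 1) and lower in PLX3AP against 3AP (-1.93, adjusted p = 0.0047). C1galt1, which adds galactose to the sugar that GalNAc-transferases attach, had -0.13 and -0.23.

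Among the partners of Tprkb, none of 9 genes of the KEOPS complex and t6A modification was called by edgeR, DESeq2 or limma-voom in any contrast (1, 1 and 0 at an unadjusted p under 0.05). Osgep, the catalytic subunit, averaged 26.1 ± 0.254 CPM in 3AP, 26.6 ± 0.648 CPM in PLX3AP and 26.8 ± 0.946 CPM in control (SD, n = 3 each). Of 10 secretory Rab GTPases none was called by any of these tools (3, 2 and 0 at an unadjusted p under 0.05). Rab26, a close relative of Rab37, had a log2 fold change of 0.17 in 3AP and -0.16 in PLX3AP. Of 17 tested Rab effectors and priming factors, Rab3il1, an exchange factor for Rab GTPases, was called higher in 3AP (0.65, adjusted p = 0.035) and lower in PLX3AP against 3AP (-0.84, adjusted p = 0.0088). The first call was lost without control 1, 2 or 3, 3AP 1 or 2, or PLX3AP 2 (adjusted p 0.051 to 0.16), and the second without 3AP 1 (0.057). Unc13a, a priming factor, had 0.11 and -0.16.

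The last list held genes that respond to glucocorticoids in many tissues. Of 16 tested, 2 were called higher and 1 lower in 3AP against control. Sult1a1, a sulfotransferase, was higher (log2 fold change 1.84, adjusted p = 0.00046) and was lower in PLX3AP against 3AP (-1.79, adjusted p = 0.00053), and both calls held in all 17 alternatives. Mt1, a metallothionein, was higher by 1.05 (adjusted p = 0.046) and Tsc22d3 lower by -0.43 (adjusted p = 0.032). The Mt1 call was lost without any control library, 3AP 1 or 2, or PLX3AP 2 or 3 (adjusted p 0.059 to 0.17), and the Tsc22d3 call without control 2 or 3 or any 3AP library (0.078 to 0.12). Fkbp5, a chaperone induced by glucocorticoids, had 0.17 in 3AP and -0.52 in PLX3AP against control and was not called.

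**Figure D4:**
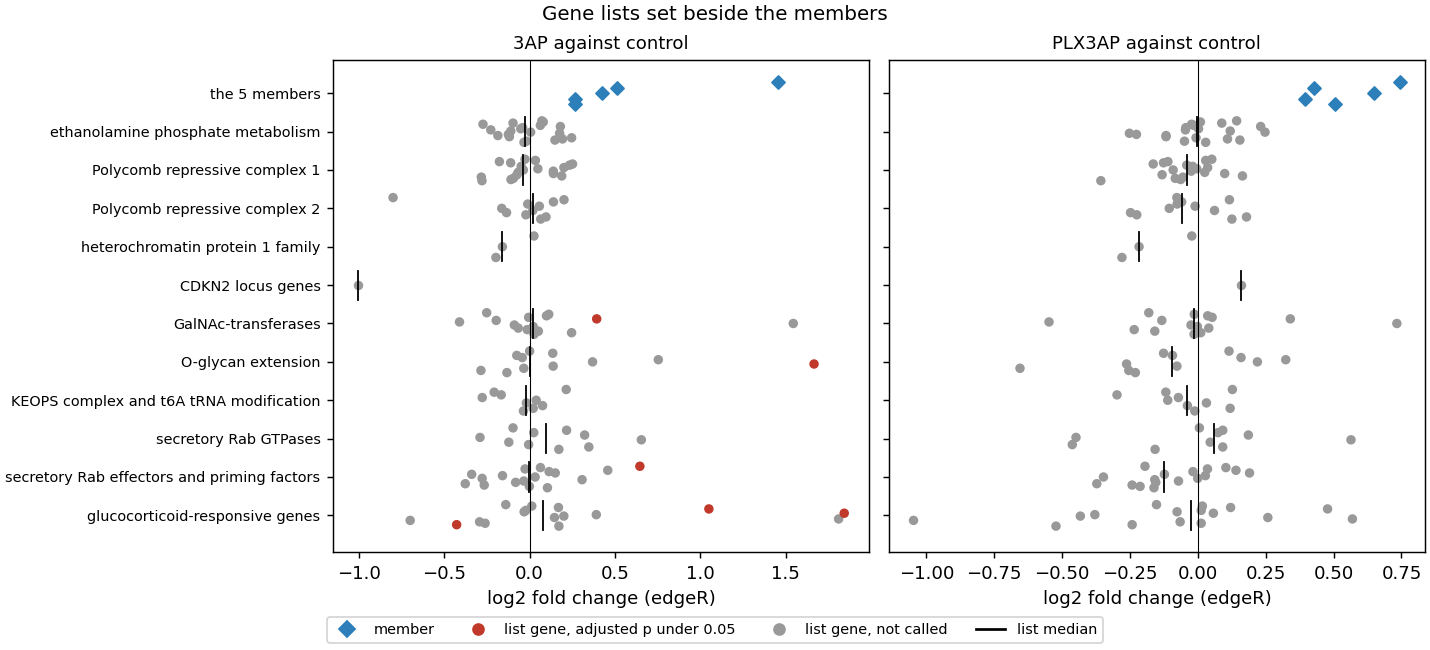
Log2 fold change from edgeR (x axis) of the tested genes of the lists, 1 row a list, in 3AP against control and PLX3AP against control, with called genes marked and the 5 members as diamonds in the top row. The black lines are list medians and the x scales of the panels differ; the diamonds lie to the right of 0, and the median over all list genes is -0.00 in 3AP and -0.02 in PLX3AP.

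The genomic surroundings of the members were compared in the same fits (build GRCm38, GENCODE M21). Etnppl (ENSMUSG00000019232.14, chr3:130617448-130637521, plus strand) lies between Col25a1 and Ostc, which were not called (log2 fold changes of -0.15 and -0.17 in 3AP and -0.46 and -0.30 in PLX3AP against control). Cbx7 (ENSMUSG00000053411.16, chr15:79915807-79971119, minus strand) overlaps Apobec3, a cytidine deaminase gene on the opposite strand, by 100 bases at their tail ends. Apobec3 was higher in 3AP (1.62, adjusted p = 0.0018) but not called in PLX3AP against control (0.07), and lower in PLX3AP against 3AP (-1.55, adjusted p = 0.0023), in all 17 alternatives. Strand use in the counting is not given in the sources used here, so reads where a member overlaps a gene on the opposite strand (Apobec3, Galnt6os, Nat8f1 and Cd300lf) cannot be told apart. Nat8f genes are also close paralogs, whose estimated counts can share reads.

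Outside Cbx7, D730005E14Rik, at 40, 1 and 5 counts summed over 3AP, PLX3AP and control, was called higher in 3AP (log2 fold change 2.88, adjusted p = 0.039; lost in 12 of 17 alternatives). It was called lower in PLX3AP against 3AP (adjusted p = 0.0089, lost without PLX3AP 3 at 0.057 and with log2(TPM + 1) at 0.10), at a ratio of summed counts of 0.0249 (95% exact binomial interval 0.000614 to 0.147, counting error only). At these counts only the 3AP libraries could carry D730005E14Rik through the filter on low counts. It was thus tested because it was high in 3AP, and nothing is read from its calls or its interval. Pdgfb was not called (0.42 in 3AP and 0.47 in PLX3AP). Galnt6 (ENSMUSG00000037280.12, chr15:100691813-100729376, minus strand) is overlapped by its antisense gene Galnt6os, which had 0, 1 and 0 counts in 3AP, PLX3AP and control. Its neighbours Cela1 and Slc4a8 were not called (0.49 and 0.03 in 3AP, 0.43 and 0.06 in PLX3AP). Tprkb (ENSMUSG00000054226.13, chr6:85911865-85930284, plus strand) overlaps Nat8f1 (-0.02 and 0.14) and a pseudogene too low to test.

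Beside Tprkb, Nat8f4, an acetyltransferase-family gene, was called higher in 3AP (0.55, adjusted p = 0.017; 0.35 in PLX3AP), a call lost without control 1, 3AP 1 or 3AP 2 (adjusted p 0.067 to 0.087), and Dusp11 was not called (0.39 and 0.02). Rab37 (ENSMUSG00000020732.13, chr11:115091431-115162236, plus strand) overlaps Cd300lf, an immune receptor gene, which was not called (1.09 in 3AP and -0.37 in PLX3AP). Cd300e, a myeloid receptor gene at lower coordinates with 41, 7 and 8 counts summed over 3AP, PLX3AP and control, was called higher in 3AP (2.28, adjusted p = 0.048) and lower in PLX3AP against 3AP (-2.49, adjusted p = 0.041), but the first call was lost without any 1 library (adjusted p 0.060 to 0.17), and the second without any 1 library except control 3 (0.054 to 0.19). Cd300e could likewise pass the filter on low counts only through the 3AP libraries, so nothing is read from its calls. Slc9a3r1, at higher coordinates, was not called (-0.22 and -0.08).

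**Figure D5:**
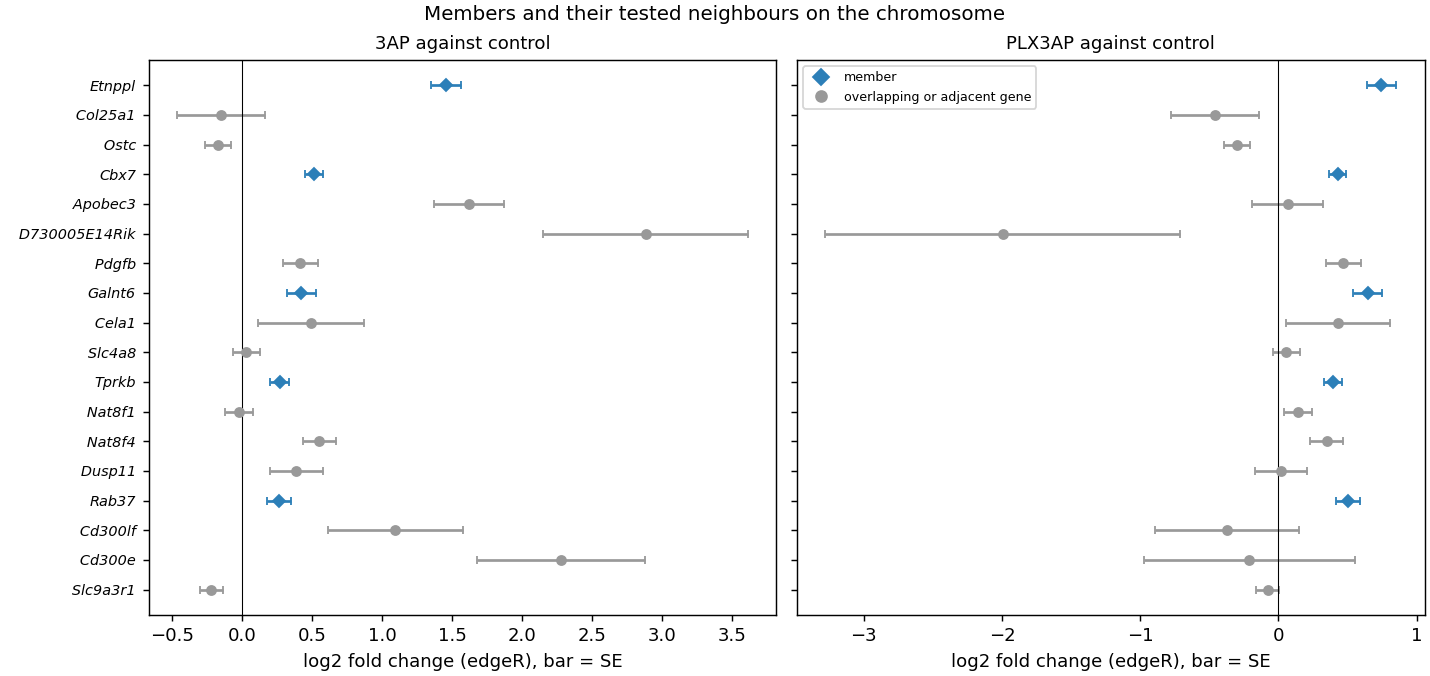
Log2 fold change from edgeR (x axis, bars SE) of each member (diamond) and its tested neighbours (circles), in 3AP against control and PLX3AP against control, on different x scales. Apobec3 lies at 1.62 and 0.07, whereas Cbx7 lies at 0.51 and 0.43.

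Genes with the profile most like each member were ranked by the root mean square difference of log2 CPM over the 9 libraries, each profile centred on its control mean. For Etnppl they were Ifi27 (0.14), Aass (0.18) and Parp3 (0.19), with log2 fold changes of 1.43, 1.61 and 1.42 in 3AP and 0.66, 0.73 and 0.50 in PLX3AP. For Cbx7 they were H6pd (0.093), Rasa4 (0.094) and Sema6c (0.094), and for Galnt6 Oplah (0.096), Gm14344 (0.11) and Rab37 (0.13). For Tprkb they were Strada (0.056), Ing5 (0.061) and Dnajc12 (0.063), and for Rab37 Acy1 (0.079), Tprkb (0.088) and Ankrd35 (0.093). Etnppl was the member least like the others, at 0.59 to 0.72 from each, while the distances among the other 4 were 0.088 to 0.17. In likeness to each other, these 4 ranked from 2 (Tprkb for Rab37) to 745 (Galnt6 for Tprkb) among the tested genes. The distances are built from the levels against control on which the members were chosen, so nothing is read from them.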

How the data were processed

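RNA sequencing of mouse cerebellum gave 9 libraries. Reads were handled by the authors with fastp, HISAT2, StringTie and RSEM and the mm10 build, per the submitters' processing notes; the sources used here give no versions, annotation or strandedness. Deposited files hold expected counts per gene, estimated by the authors and not whole or normalised, and the deposited TPM values, scaled by the authors for length and library total. Of 55808 rows, 1884 without a name (0.526 to 0.660% of the counts) were left out. The members and lists were chosen with earlier results of these data known.

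The expected counts were rounded. In edgeR 4.0.16 (R 4.3.3), 16634 genes passed filterByExpr, TMM factors were 0.986 to 1.02, and 1 quasi-likelihood model with a term for each group and robust dispersion covered all 9 libraries (biological coefficient of variation 0.126). Two-sided p-values were adjusted after Benjamini and Hochberg across the tested genes, with calls under 0.05; the SE is the size of the log2 fold change over the square root of F, and intervals are 95%. Log2 CPM used a prior count of 2. Alternatives were DESeq2 1.42.0 and its size factors, limma 3.58.1 (voom, and log2 TPM plus 0.1 or 1), no filter on low counts, only the 2 groups compared, a replicate block and leaving out each library. Within groups, libraries correlated at 0.980 to 0.988 over log2 CPM of genes, which are not independent, and no pair was a repeat of 1 library (its chi-square over the degrees of freedom was 4.68 to 27.2). Named genes were the members, the first relatives and the called genes of each pathway list, the first 3 markers of a list, the overlapping and nearest tested genes and the 3 most alike. Cdkn2b, and Irf7, Itpr3 and Ifit3 around the threshold, were named after their values were seen. The fit was also run on simulated data, and its outcome there is not used for any statement here.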

Additional observations from a re-analysis of the deposited data

How the results depend on the processing

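All member log2 fold changes kept their direction in the 17 alternatives. Against control, those of Etnppl and Galnt6 did not move beyond the SD within groups in any of the 17. A fold change counted as moved where it shifted by more than the gene's SD of log2 CPM within the groups compared. For Cbx7 this SD was small, with a coefficient of variation of CPM of 0.322% in control and 1.18% in PLX3AP. The counts and fold changes listed next are those that moved in some alternatives, and why the values shifted was not tested. Genes called in PLX3AP against control numbered 20, but 71 with no filter on low counts, 110 with DESeq2, 9 with log2(TPM + 1) and 10 with the replicate block; without 1 library they were 7 to 153 (153 without PLX3AP 1). Genes called without 1 library were 466 to 991 in 3AP against control (820 with all) and 401 to 715 in PLX3AP against 3AP (621 with all). Members called higher in 3AP against control numbered 4, but 2 with no filter, with either TPM pseudocount and with the replicate block, and 2 to 4 without 1 library. Those called in PLX3AP against control numbered 5, but 3 with limma-voom, 1 with either TPM pseudocount or only the 2 groups, 0 with the replicate block and 0 to 5 without 1 library. Listed pathway genes called in 3AP against control numbered 6, but 3 with either TPM pseudocount, 2 with the block and 1 to 6 without 1 library; in PLX3AP against control 0, but 1 with DESeq2 and 0 to 1 without 1 library; in PLX3AP against 3AP 3, but 5 with DESeq2 and 2 to 6 without 1 library. In log2 TPM, against control, Cbx7 was 0.56 in 3AP (pseudocount 0.1) and 0.53 and 0.52 in PLX3AP, Tprkb 0.19 and 0.19 in 3AP and 0.35 and 0.35 in PLX3AP, and Rab37 0.34 in 3AP (pseudocount 0.1); without 1 library Cbx7 was 0.42 to 0.43 in PLX3AP.

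The labels do not say that the replicate numbers pair the libraries. Deviations from group means of same-numbered libraries correlated at -0.203 to 0.0931 over 9 pairs, and those of other pairs at -0.112 to 0.232. Of 9 libraries, 0 correlated best with their own number. With 3 libraries a group, deviations from a group mean are not independent, so these correlations cannot decide whether same-numbered libraries shared a batch. Depth limits the genes of a few counts: Cdkn2a, Galnt3 and Galnt6os were too low to test.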
